A study of Mus musculus with 6 samples.

Results

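The tricarboxylic acid (TCA) cycle oxidizes acetyl groups in the mitochondrial matrix and passes the electrons to the respiratory chain, which metformin is known to inhibit at its first complex when the dose is high enough. Because cycle intermediates are also drawn off to make aspartate, citrate and glutamate, the cycle depends on anaplerosis, the refilling reactions that start from pyruvate or glutamine. The malate-aspartate shuttle couples the cycle to the cytosol through a pair of malate dehydrogenases, a pair of aspartate transaminases and carriers of the inner membrane, and so moves reducing equivalents into mitochondria.

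The 34 genes of this group were taken from a list of names and found in the deposited table by Ensembl identifier, 34 of the 55401 genes in the table. They comprised 12 cycle enzymes, 13 transaminases, glutamine and glutamate enzymes, malic enzymes, pyruvate carboxylase and phosphoenolpyruvate (PEP) carboxykinases, and 9 others, namely the isocitrate dehydrogenases that use NADP, cytosolic malate dehydrogenase and 6 mitochondrial carriers. RNA-seq was made from 3 untreated control libraries and from 3 libraries of cells given 1 μM metformin over 24 h. Both groups came from C57BL/6 mouse cells labelled as female germline stem cells (FGSCs) at a passage above 20. All were grown on inactivated STO feeder cells, a mouse fibroblast line, with serum, growth factors, pyruvate, non-essential amino acids and 2 mM glutamine, so that fuel for the cycle was supplied in both groups. The comparison asked whether metformin changed the expression of the cycle enzymes, and whether these differed from the transaminases and anaplerotic enzymes.

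Values were FPKM, fragment counts scaled by the authors for gene length and sequencing depth, so that levels can be compared between genes. Depth, read from the step that 1 fragment makes in short genes with a single exon, was 13400000 to 14000000 fragments per library, and 3 fragments on 1 kb were worth 0.214 to 0.224 FPKM. No library stood apart, with an SD of the log2 difference between 2 libraries of 0.191 to 0.210 over the genes tested. Against the label, germ cell markers were at or near 0: Pou5f1, Dppa3 and Dazl were listed at 0 in all libraries, and none of the 6 listed reached a mean of 1 FPKM. None of 10 fibroblast markers reached it either, with a summed level of 0.49 to 0.77 FPKM in the control group and 0.54 to 0.64 FPKM in the metformin group, whereas all 10 blood cell markers did, with sums of 543 to 551 and 546 to 560 FPKM. The part of these other cell types in the results was not tested, and in bulk RNA fewer cells of a type and less RNA per cell cannot be told apart. The labels do not say that the repeats were separate cultures, so that p-values measure the spread between these libraries.

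Of the 34 genes, 31 had a mean of at least 1 FPKM and were tested. None of them passed an adjusted p of 0.05 in limma, adjusted by Benjamini-Hochberg over all 10661 genes tested, where 0.0281% of all genes tested passed, and the lowest adjusted p of the group was 0.301. At an unadjusted p under 0.05, 4 were higher and 1 was lower with metformin, or 16.1% of the members tested against 10.8% of all genes tested. Of the 31, 27 lay within 0.10 of 0 on the log2 scale, where 79.7% of all genes tested did, and the 95% intervals of 26 reached no further than 0.20 either way. That share is not matched for level. The median level was 33.4 FPKM for the members and 9.35 FPKM for all genes tested, and differences spread more widely at low levels. The median log2 difference of the members was 0.01, and that of all genes tested 0.00.

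**Figure D1:**
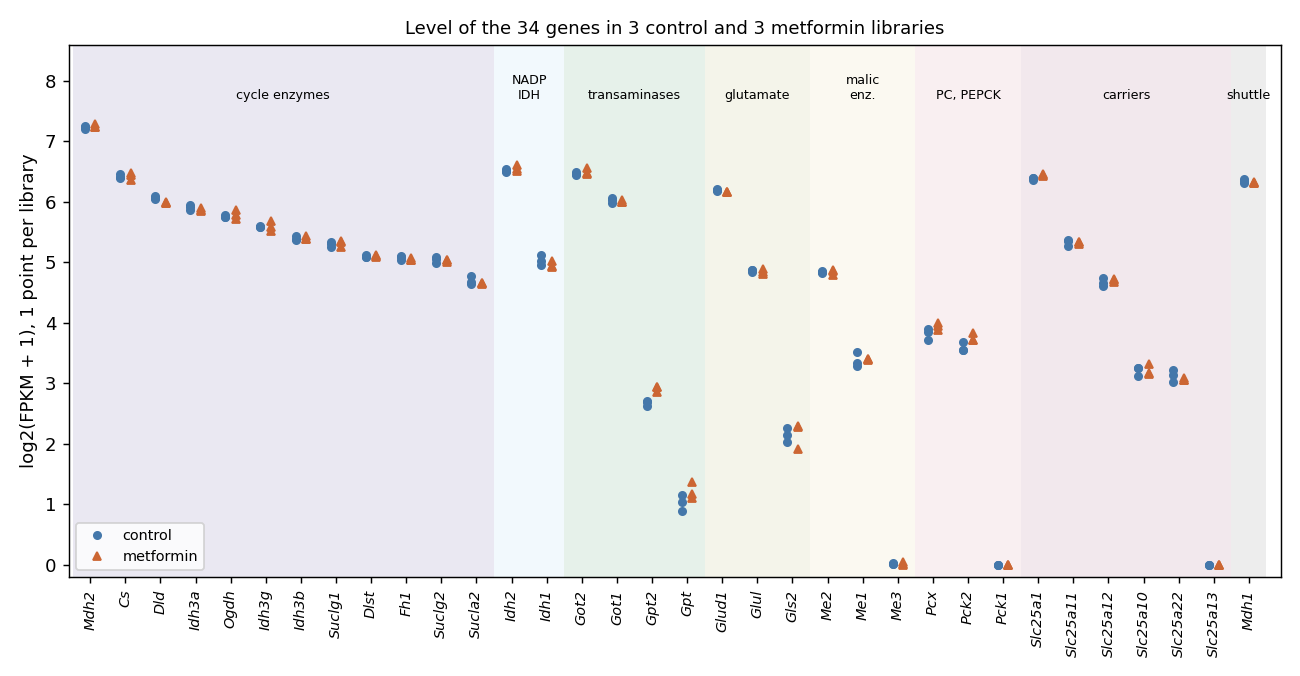
Level of each of the 34 genes as log2(FPKM + 1), with 1 point per library, circles for the 3 control and triangles for the 3 metformin libraries, in bands by role (IDH, isocitrate dehydrogenase; PC, PEPCK, pyruvate carboxylase and PEP carboxykinases). Mdh2 is highest in every library, Me3, Pck1 and Slc25a13 lie at or next to 0, and the 2 groups lie nearly on top of each other for most genes.

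The sequences before the transcription start are shown for Gpt2 and Pck2, the transaminase and anaplerotic genes whose metformin libraries all lay above the control libraries, and for Got1, whose window held both motifs searched although its groups overlapped. Gpt2 encodes mitochondrial alanine transaminase, Pck2 mitochondrial PEP carboxykinase, and Got1 cytosolic aspartate transaminase. Gpt2 and Pck2 are known targets of ATF4, the transcription factor of the integrated stress response, which binds with C/EBP partners to composite elements of the form TGATGNAAN. The sequences are those of RefSeq on GRCm38.p6, from 250 bases before the start to 50 bases after it, written 5′ to 3′ along the transcript, with matches to this form on either strand in capitals. They lie at chr8:85492326-85492625 on the plus strand for Gpt2, at chr14:55540016-55540315 on the plus strand for Pck2 and at chr19:43524556-43524855 on the minus strand for Got1.
Gpt2: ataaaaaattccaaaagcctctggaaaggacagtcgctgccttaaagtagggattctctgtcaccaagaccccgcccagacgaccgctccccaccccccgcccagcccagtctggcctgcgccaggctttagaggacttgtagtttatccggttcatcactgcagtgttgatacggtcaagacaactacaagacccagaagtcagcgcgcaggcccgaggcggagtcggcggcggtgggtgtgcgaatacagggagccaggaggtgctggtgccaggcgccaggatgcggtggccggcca
Pck2: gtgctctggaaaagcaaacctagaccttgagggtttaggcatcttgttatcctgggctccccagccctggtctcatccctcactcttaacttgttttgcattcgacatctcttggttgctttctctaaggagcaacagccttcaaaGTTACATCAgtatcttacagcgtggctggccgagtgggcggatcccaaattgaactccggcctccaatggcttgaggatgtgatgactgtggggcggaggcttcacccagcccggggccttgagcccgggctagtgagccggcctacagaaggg
Got1: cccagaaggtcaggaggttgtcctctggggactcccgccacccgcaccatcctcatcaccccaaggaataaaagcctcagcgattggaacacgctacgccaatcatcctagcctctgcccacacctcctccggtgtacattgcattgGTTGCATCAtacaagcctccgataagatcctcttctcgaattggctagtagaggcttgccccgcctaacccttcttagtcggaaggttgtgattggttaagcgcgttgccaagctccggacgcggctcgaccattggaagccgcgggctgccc
The Pck2 window held 1 match on the opposite strand, beginning 104 bases before the start, and the Got1 window held 1, beginning 103 bases before it, whereas the Gpt2 window held none, nor did the 2 windows of Pcx, which are not shown. The match in Got1 also contains TTGCATCA, the 8-base core with a C at the free position, which overlaps it. Over all 32851 RefSeq promoter windows of this length, 3.95% held a match to the first form and 0.895% to the second. Of 30 members found in that set, with 40 windows, Got1, Me3 and Pck2 held the first form and Got1 the second. A match is a description of the letters, and binding was not measured.

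The 12 enzymes of the cycle itself had small differences in both directions. Their median log2 difference was 0.00, with 6 above and 6 below 0 and a range from -0.09 to 0.03, and the 95% intervals of all 12 lay between -0.14 and 0.12. Averaged over the 12 genes, the log2(FPKM + 1) level of the control libraries was 5.63 ± 0.02 and that of the metformin libraries 5.62 ± 0.01 (SD, n = 3 each). Entry to the cycle is made by citrate synthase, Cs, which had 84.8 ± 1.79 FPKM in the control group and 85.3 ± 3.92 FPKM with metformin (SD, n = 3 each). Mdh2, the matrix malate dehydrogenase that regenerates oxaloacetate, had the highest level of all 34 genes in every library. Its FPKM was 147.11, 149.50 and 150.88 in the control libraries and 150.64, 154.52 and 149.50 with metformin, and these ranges overlapped.

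The 3 subunits of the NAD-dependent isocitrate dehydrogenase, a main control point of the cycle, were at unequal levels. The catalytic subunit Idh3a had a mean of 58.3 FPKM over the 6 libraries, Idh3g 47.4 and Idh3b 41.2, and the ranges over libraries of these 3 did not overlap. Their log2 differences with metformin were -0.04, 0.00 and -0.00, and none had an adjusted p under 0.632 (limma). Idh3b shares its last 5 bases with Nop56 on the opposite strand, which had 94.8 FPKM. Succinyl-CoA synthetase pairs one alpha subunit, Suclg1 (38.7 FPKM), with a beta subunit that makes either ATP, Sucla2 (24.6 FPKM), or GTP, Suclg2 (31.9 FPKM). The ratio of Sucla2 to Suclg2 ranged from 0.754 to 0.796 in all 6 libraries, so that the GTP-forming subunit had the higher RNA level throughout. Fh1, fumarase, had 32.7 ± 0.766 FPKM in the control group and 32.2 ± 0.342 with metformin (SD, n = 3 each).

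Dld was the only 1 of the 12 cycle enzymes with groups that did not overlap. It was lower with metformin, as were 8.1% of all genes tested without overlap. The gene, at chr12:31331277-31351453 on the minus strand (GRCm38), encodes dihydrolipoamide dehydrogenase, the E3 subunit that the 2-oxoglutarate dehydrogenase complex shares with the pyruvate dehydrogenase and branched-chain complexes and with glycine cleavage. The control libraries had 65.12, 67.67 and 66.02 FPKM and the metformin libraries 62.66, 62.39 and 61.87. All metformin libraries lay below all control libraries, with means of 66.3 ± 1.29 and 62.3 ± 0.402 FPKM (SD, n = 3 each), a log2 difference of -0.09 (95% interval -0.14 to -0.03, adjusted p = 0.346 from limma). For the other subunits of the 2-oxoglutarate complex the groups overlapped, Ogdh with a log2 difference of 0.03 (95% interval -0.07 to 0.12) and Dlst with 0.01 (95% interval -0.05 to 0.07). Among the partners of Dld in the pyruvate dehydrogenase complex, Dlat (the E2 subunit) also had all metformin libraries below all control libraries, with a log2 difference of -0.08 (adjusted p = 0.455 from limma). Pdha1, Pdhb and Pdhx had log2 differences of -0.02, 0.04 and -0.06, with groups that overlapped.

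**Figure D2:**
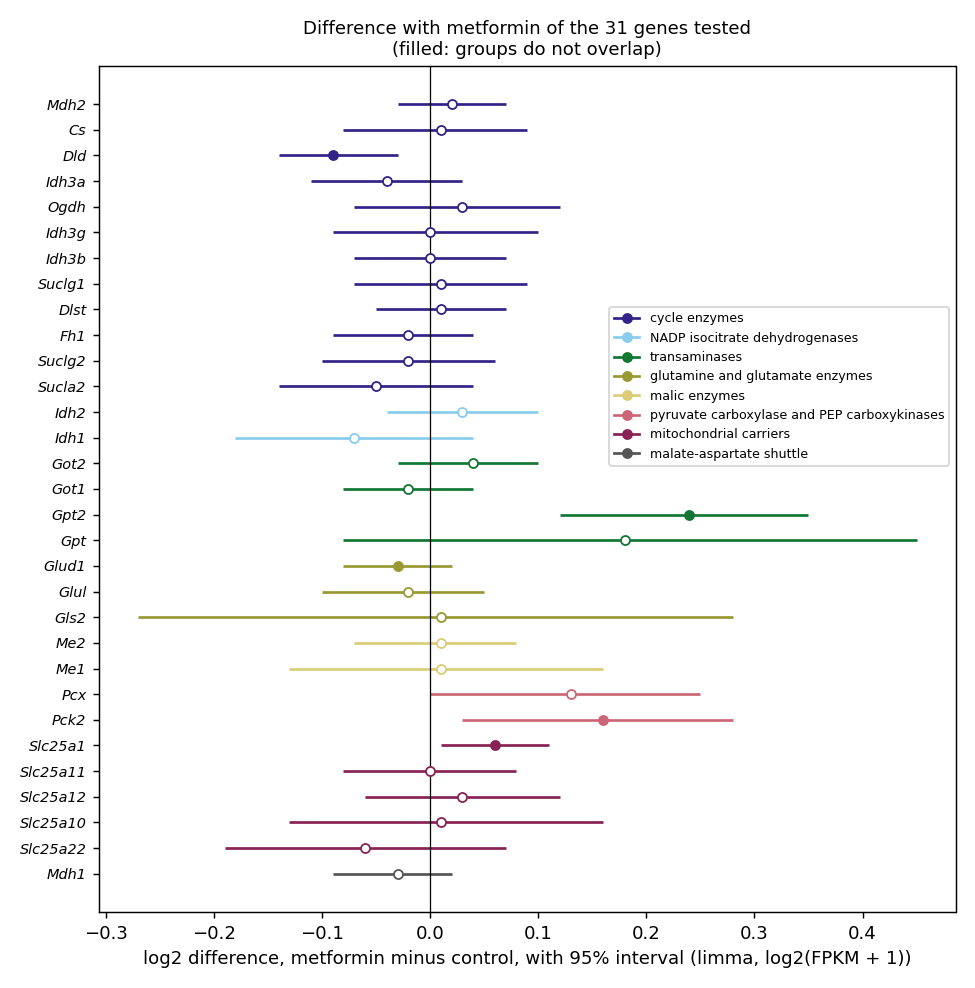
Log2 difference of the 31 genes tested, metformin minus control, with 95% intervals from limma, coloured by role and filled where the 3 metformin and 3 control libraries do not overlap. The cycle enzymes crowd around 0, with Dld at -0.09, while Gpt2 at 0.24, Pck2 at 0.16 and Pcx at 0.13 lie to the right.

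Isocitrate dehydrogenases that use NADP supply reducing power, Idh1 in the cytosol and peroxisomes and Idh2 in the matrix. Idh2 had the second highest mean level of the group, with a range over libraries that overlapped that of Got2. Idh2 stood at 90.8 ± 1.51 FPKM in the control group and 93.0 ± 3.22 with metformin (SD, n = 3 each). Idh1 had 31.8 ± 1.74 and 30.2 ± 1.21 FPKM (SD, n = 3 each), a log2 difference of -0.07 (95% interval -0.18 to 0.04). Idh2 exceeded Idh1 by 2.66 to 3.30 times in all libraries.

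Of the 13 transaminases, glutamate and anaplerotic enzymes, 11 were tested, with a median log2 difference of 0.01, 8 above and 3 below 0, and a range from -0.03 to 0.24. Averaged over the 11 genes, the log2(FPKM + 1) level was 4.13, 4.09 and 4.07 in the control libraries and 4.14, 4.18 and 4.16 with metformin, which is 4.10 ± 0.03 against 4.16 ± 0.02 (SD, n = 3 each). By these averages the metformin libraries all lay above the control libraries, a difference of 0.06, against -0.01 for the cycle enzymes. The median of the cycle enzymes minus the median of this group was -0.0137 log2 units. Single libraries varied in that quantity with an SD of 0.0216 within groups, which is not the error of a difference between groups of 3. The difference of the medians depended on single libraries and genes. It was -0.0752 without control library 1, -0.0516 without metformin library 1 and -0.0544 without metformin library 3, and it was -0.0811 with Gls2, Glul and Glud1 left out of the second group. The largest log2 differences in this group were those of Gpt2, Gpt, Pck2 and Pcx, although the interval of Gpt included 0 and the groups of Gpt and of Pcx overlapped.

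Gpt2, which transfers the amino group of glutamate to pyruvate and so makes 2-oxoglutarate and alanine in mitochondria, had the largest log2 difference of the 31 genes tested. It lies at chr8:85492576-85527560 on the plus strand of GRCm38. Its FPKM was 5.57, 5.15 and 5.44 in the control libraries and 6.22, 6.66 and 6.69 with metformin. Every metformin library lay above every control library, and the means were 5.39 ± 0.215 and 6.52 ± 0.263 FPKM (SD, n = 3 each), 21.1% higher with metformin. The log2 difference was 0.24 (95% interval 0.12 to 0.35, adjusted p = 0.301 from limma; exact two-sided permutation p = 0.1, which is the lowest that 3 against 3 can give), at the 98.0th percentile of all genes tested. The cytosolic alanine transaminase Gpt was lower in level, at 1.22, 1.06 and 0.85 FPKM in the control libraries and 1.14, 1.24 and 1.58 with metformin. Its groups overlapped, and a log2 difference of 0.18 had a 95% interval from -0.08 to 0.45. About 21 to 39 fragments per library lay behind Gpt, against 401 to 526 for Gpt2, by the exon lengths of GENCODE M1. The counting error of 18.5% expected for Gpt is of the size of its spread within groups, 17.6%, and that expected for Gpt2 is 4.64% against a spread of 4.01%.

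The aspartate transaminases, which exchange aspartate and 2-oxoglutarate for oxaloacetate and glutamate on either side of the inner membrane, were far more abundant than Gpt2. Got1 had 64.2 ± 1.66 FPKM in the control group and 63.3 ± 0.792 with metformin (SD, n = 3 each), a log2 difference of -0.02 (95% interval -0.08 to 0.04). Got2 in mitochondria had 87.3 ± 1.22 and 89.6 ± 2.95 FPKM (SD, n = 3 each), a log2 difference of 0.04. A stretch of chromosome 5 is 98.8% identical to 92.6% of the Got2 transcript on NCBIM37, so the level of Got2 depends on how the authors counted fragments that match both.

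PEP carboxykinase turns oxaloacetate into PEP and so withdraws carbon from the cycle, and the cells expressed only its mitochondrial form above the floor. Pck2, at chr14:55540266-55551242 on the plus strand of GRCm38, had 11.89, 10.79 and 10.75 FPKM in the control libraries and 12.18, 12.12 and 13.30 with metformin. The groups did not overlap, although the highest control library lay just under the lowest metformin library. The means were 11.1 ± 0.647 and 12.5 ± 0.665 FPKM (SD, n = 3 each), a log2 difference of 0.16 (95% interval 0.03 to 0.28, adjusted p = 0.390 from limma). Pck1, the cytosolic form that liver and kidney use to make glucose, was listed at 0 FPKM in all 6 libraries. Pcx, pyruvate carboxylase, refills the cycle with oxaloacetate made from pyruvate, and its gene lies at chr19:4510472-4621752 on the plus strand of GRCm38. Its FPKM was 12.16, 13.36 and 13.86 in the control libraries and 14.51, 14.92 and 13.81 with metformin, so that the lowest metformin library lay just under the highest control library. The log2 difference of Pcx was 0.13 (95% interval 0.00 to 0.25, adjusted p = 0.455 from limma). Lrfn4, a gene on the opposite strand inside the Pcx locus, had 11 FPKM, and whether counting used the strand is not given in the sources used here.

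**Figure D3:**
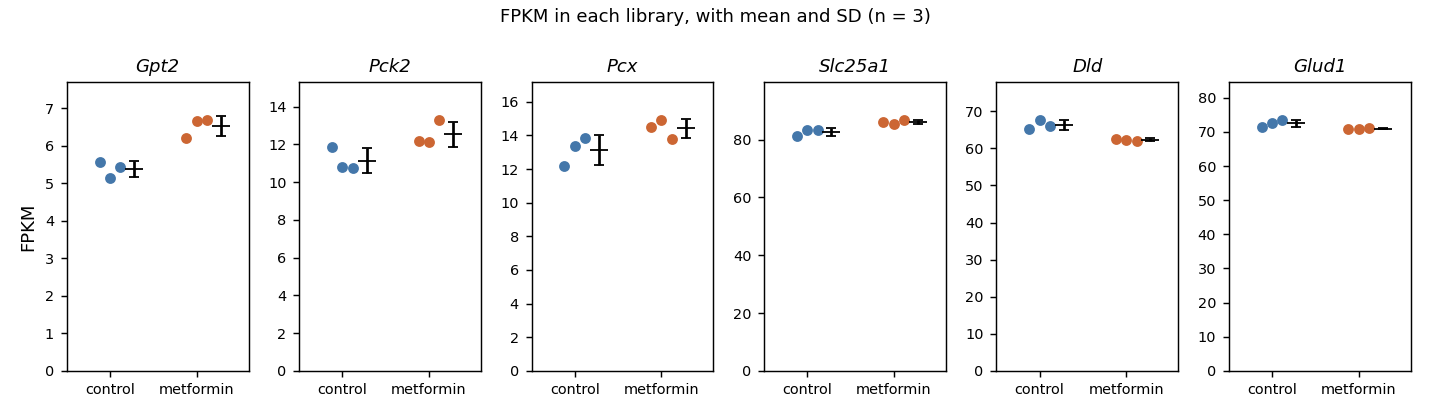
FPKM of Gpt2, Pck2, Pcx, Slc25a1, Dld and Glud1, with 1 point per library and the mean and SD (n = 3) beside them, each axis starting at 0. Gpt2, Pck2 and Slc25a1 lie higher in all 3 metformin libraries, Dld and Glud1 lie lower, and the groups of Pcx overlap.

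The enzymes that make and use glutamate had log2 differences from -0.03 to 0.01. Glutamate dehydrogenase, Glud1, which releases ammonia from glutamate to give 2-oxoglutarate, had 71.43, 72.58 and 73.49 FPKM in the control libraries and 70.91, 70.95 and 71.04 with metformin. The metformin libraries were all below the control libraries, with means that differed by -2.11%, a log2 difference of -0.03 (95% interval -0.08 to 0.02, adjusted p = 0.636 from limma) and an unadjusted p of 0.191. Glutamine synthetase, Glul, had 28.1 ± 0.410 and 27.7 ± 0.865 FPKM (SD, n = 3 each). Both have a near-identical stretch elsewhere on NCBIM37, 97.2% identical over 35.1% of the transcript for Glud1 and 95.7% identical over 48.6% for Glul. The glutaminase Gls2, abundant in liver, had 3.45 ± 0.365 and 3.49 ± 0.644 FPKM (SD, n = 3 each).

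Malic enzymes turn malate into pyruvate, and Me2, the mitochondrial form that uses NAD, was the most abundant of the 3. Me2 stood at 27.6 ± 0.395 FPKM without and 27.8 ± 0.903 FPKM with metformin (SD, n = 3 each). Cytosolic Me1, a source of NADPH, had 10.49, 8.81 and 9.05 FPKM in the control libraries and 9.54, 9.60 and 9.45 with metformin. Control library 1 was thus the highest and control library 2 the lowest of the 6, and the metformin libraries lay between them. A stretch of chromosome 13 is 98.0% identical to 61.2% of the Me1 transcript. Me3, the mitochondrial form that uses NADP, was listed at 0.00 to 0.03 FPKM.

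Among the carriers, Slc25a1, which exports citrate to the cytosol for lipid synthesis, was the most abundant and the only one with groups that did not overlap. It had 81.22, 83.39 and 83.31 FPKM in the control libraries and 86.13, 85.25 and 86.81 with metformin. The log2 difference was 0.06 (95% interval 0.01 to 0.11, adjusted p = 0.412 from limma), so that means of 82.6 ± 1.23 and 86.1 ± 0.782 FPKM (SD, n = 3 each) were 4.14% apart. The ranges over libraries of Got2 (86.29 to 93.01 FPKM), Cs (80.95 to 88.57) and Slc25a1 (81.22 to 86.81) overlapped, although Got2 was above both Cs and Slc25a1 in each of the 6 libraries. The dicarboxylate carrier Slc25a10 had 8.26 ± 0.503 and 8.33 ± 0.607 FPKM, and the glutamate carrier Slc25a22 had 7.72 ± 0.608 and 7.36 ± 0.1 FPKM (SD, n = 3 each).

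The 6 tested genes of the malate-aspartate shuttle had log2 differences from -0.03 to 0.04 with a median of 0.01, and their 95% intervals lay between -0.09 and 0.12. The groups overlapped for every one of the 6. The 2-oxoglutarate carrier Slc25a11 had 39.2 ± 1.57 FPKM in the control group and 39.2 ± 0.501 with metformin (SD, n = 3 each). Of the aspartate-glutamate carriers, which commit aspartate to leave the matrix, Slc25a12 (aralar) had 23.45 to 25.84 FPKM over the 6 libraries, while Slc25a13 (citrin) was listed at 0 in all of them. An exact 0 can be a failed estimate. Of 20 genes that every cell uses, 0 were at 0 in any library. Since these are other genes, they cannot show whether the 0 of Slc25a13 is a true absence. Over the exon length of Slc25a13 in GENCODE M1, 3 fragments would be worth at most 0.0714 FPKM, a limit that covers counting error only.

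Within the shuttle, the cytosolic and mitochondrial forms were set against each other in each library. The ratio of Mdh1 to Mdh2 was 0.535, 0.553 and 0.532 in the control libraries and 0.524, 0.508 and 0.526 with metformin, a mean of 0.540 ± 0.0109 against 0.52 ± 0.00988 (SD, n = 3 each). The ratio of Got1 to Got2 was 0.748, 0.741 and 0.717 in the control libraries and 0.715, 0.690 and 0.715 with metformin, a mean of 0.735 ± 0.0160 against 0.707 ± 0.0146 (SD, n = 3 each). In both pairs the ratio was lower in all metformin libraries than in all control libraries, with an exact permutation p = 0.1, the smallest possible, and an adjusted p = 0.35 over the 7 isozyme pairs compared. The other 5 ratios overlapped between the groups, among them Gpt2 to Gpt, 5.27 ± 0.985 against 5.02 ± 0.682, and Me1 to Me2, 0.342 ± 0.0324 against 0.344 ± 0.0113 (SD, n = 3 each). The pairs of Pck2 with Pck1 and of Slc25a12 with Slc25a13 gave no ratio, since the second gene was listed at 0.

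**Figure D4:**
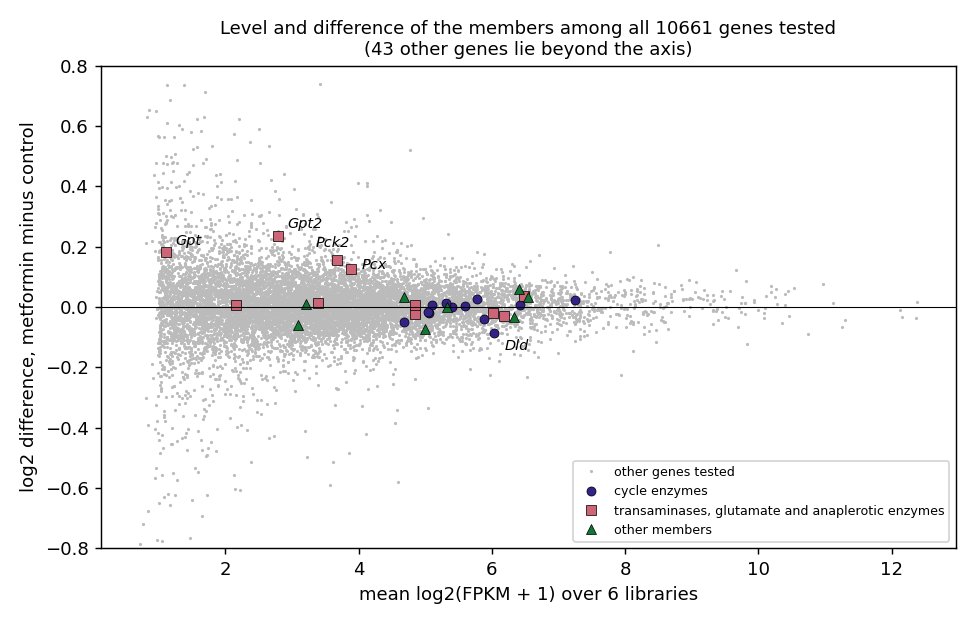
Log2 difference, metformin minus control, against the mean log2(FPKM + 1) of all 10661 genes tested, with the cycle enzymes as circles, the transaminases, glutamate and anaplerotic enzymes as squares and the other members as triangles. The spread of all genes widens at low levels, where Gpt at 0.18 lies, while the cycle enzymes lie at higher levels and near 0.

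Against all genes tested, 3 of the 31 members were higher and 2 lower with groups that did not overlap, or 16.1% together, where 17% of all genes tested did not overlap (8.89% higher and 8.1% lower). The 1st and 99th percentiles of the log2 difference over all genes were -0.32 and 0.35, and no member lay beyond them. At an unadjusted p under 0.05, higher, there were 4 members, Gpt2, Pck2, Slc25a1 and Pcx, where 6.03% of all genes tested passed, and 1 member was lower, Dld, where 4.81% did.

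Other genes of the pathway were listed in the same way. The lists were made with earlier results of these data known, so that choice can shape their counts, which are no test. At an unadjusted p under 0.05 (limma), 6.03% of all genes tested were higher and 4.81% lower. Of the 10 remaining cycle genes, 7 were tested and none had an unadjusted p under 0.05 or groups that did not overlap. These included the succinate dehydrogenase subunits Sdha, Sdhb, Sdhc and Sdhd, which oxidize succinate and feed the respiratory chain, with log2 differences from -0.03 to 0.00. Of 12 genes of pyruvate entry, 10 were tested, with 1 lower at an unadjusted p under 0.05, Dlat. Of 18 other enzymes of glutamate, glutamine and aspartate, 12 were tested, with 4 higher (Aldh18a1, Psat1, Asns and Cad) and 1 lower at that threshold. Asns, which makes asparagine from aspartate and glutamine, had a log2 difference of 0.08, and Aldh18a1, which starts proline synthesis from glutamate, one of 0.09. Of 12 carriers of glutamine, glutamate and other amino acids in the plasma membrane and mitochondria, 7 were tested. At that threshold 6 of them were higher, where 6.03% of all genes tested were. The largest of these differences was that of the neutral amino acid transporter Slc1a4, with 19.4 ± 0.686 FPKM in the control group and 23.8 ± 0.881 with metformin (SD, n = 3 each), a log2 difference of 0.28 (adjusted p = 0.201 from limma). None of these 36 genes tested in the 4 lists had an adjusted p under 0.05.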

How the data were processed

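RNA-seq of 3 control and 3 metformin libraries was analysed. The authors deposited FPKM values, rounded to 2 decimals, with gene positions of GRCm38, whereas the submitters' processing notes name HISAT2, DESeq2 and mm9 without a role. The counting tool and its use of strand are not given in the sources used here, and the labels and the paper name different library kits. Values were tested as log2(FPKM + 1) for genes whose mean reached 1 FPKM, with limma 3.58.1 in R 4.3.3 (lmFit, eBayes with a trend, two-sided, Benjamini-Hochberg). Fold changes on this scale understate changes of low genes. Single values were compared by exact permutation of the 6 libraries. The fit was tested on simulated data in which 200 genes were changed. At an adjusted p under 0.05 in limma it recovered 0% of them for a log2 change of 0.1. It recovered 39% for a change of 0.25 and 81.5% for 0.5. A difference of the size found for Gpt2 could therefore be missed. Member transcripts were aligned to NCBIM37 with minimap2 2.31-r1302 to find copies of at least 95% identity over at least 20% of the transcript, found for 4 of 34. No build was converted. Some genes of the other lists enter counts only and are not reported here by name. Members and lists were chosen with earlier results of these data known. Members named with each library's value were those with groups that did not overlap, an unadjusted p under 0.05 or a mean under 1 FPKM; others so named, and genes of the other lists, were chosen after their values were seen. No per-sample column was left unused. Alternatives were another pseudocount, filter, scaling, spread model and grouping, a replicate block, and each library left out.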

Additional observations from a re-analysis of the deposited data

How the results depend on the processing

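No member had an adjusted p under 0.05 in limma under any of the 14 alternative fits, in which 25 to 32 members were tested, and none of the 6 members singled out changed sign. The number of members with an unadjusted p under 0.05 was 5 in the reported fit, 3 without the trend on the mean, 3 with replicate numbers fitted as a block, and from 3 to 4 with 1 library left out (3 without control library 1 or 2 or metformin library 1 or 3). Gpt2 and Dld kept an unadjusted p under 0.05 in every alternative that tested them, whereas Pck2 lost it in 3 of 14, Slc25a1 in 5 of 14 and Pcx in 9 of 14. Among the amino acid carriers, Slc1a4, Slc3a2 and Slc7a5 kept it in all alternatives. Slc38a2 lost it in 1 of 14, Slc1a5 in 5 of 14 and Slc7a11 in 6 of 13. Of the enzymes named from the other lists, Dlat lost it in 7 of 14, Cad in 8 of 14 and Psat1 in 5 of 14. Aldh18a1 and Asns kept it in all alternatives. The log2 difference of Gpt2 ranged from 0.21 to 0.27 over all 13 alternatives that tested it, that of Pck2 from 0.12 to 0.20, and that of Pcx from 0.08 to 0.16, with adjusted p from 0.290 to 0.478, from 0.263 to 0.614 and from 0.330 to 0.693 in limma. The median of the cycle enzymes ranged from -0.0200 (without metformin library 1) to 0.00195 with 1 library left out. The median of the transaminases, glutamate and anaplerotic enzymes was more dependent on single libraries, from 0.00668 to 0.0659 (0.0659 without control library 1, 0.0315 without metformin library 1 and 0.0469 without metformin library 3), and the difference of the medians from -0.0752 to -0.00665. With Gls2, Glul and Glud1 left out, the second median was 0.0818 and the difference -0.0811. Same-numbered libraries of the groups did not deviate together (correlations over genes of -0.0317, 0.0181 and 0.0479), so the number was not taken as a pairing. Gls2 and Gpt, with intervals reaching 0.28 and 0.45, were too imprecise to tell a difference of the size found for Pck2 from 0. Their spread within groups was 15% for Gls2, where counting error gives 7.74%, and 17.6% for Gpt, where it gives 18.5%.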

Other observations

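Genes that every cell uses but that are known to have many processed copies in the mouse genome were low in the deposited table, Gapdh at 10.1 FPKM, Ppia at 7.83 FPKM and Rps18 at 6.15 FPKM as means over the 6 libraries, against 979 FPKM for Actb and 4487 for Eef1a1. How the authors treated fragments with several matches is not given in the sources used here. Of the 34 members, 4 had a near-identical stretch elsewhere, Got2, Me1, Glul and Glud1, and the part of copies in their levels was not tested.

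Mpc1 and Mpc2, whose products together form the mitochondrial pyruvate carrier, were far below the cycle enzymes in level, at means of 1.53 and 4.12 FPKM, while the 12 cycle enzymes had 24.6 to 150 FPKM. Mpc1 was lower in all 3 metformin libraries than in all 3 control libraries, as were 8.1% of all genes tested. Its level was 1.63 ± 0.0757 FPKM in the control group and 1.42 ± 0.0208 with metformin (SD, n = 3 each). The log2 difference was -0.12 with a 95% interval from -0.29 to 0.05 (adjusted p = 0.576 from limma). About 41 to 48 fragments per library lay behind Mpc1. The counting error expected from these in a single library, 15.1%, exceeded the spread within groups, 3.44%. The means differed by -12.9%, and the counting error of that difference was not computed. Mpc1 and Mpc2 were picked out with their values in view.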
